A study of Mus musculus with 24 samples.

Results

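Interferons are secreted proteins that act through cell-surface receptors and JAK and STAT proteins. Type I interferons activate a complex with Stat2 and Irf9 that binds interferon-stimulated response elements and switches on antiviral genes, while interferon-gamma acts at gamma-activated sites and raises Irf1, immunity-related GTPases and the genes that cut, transport and load peptides onto MHC class I. In kidney, tubular and endothelial cells as well as resident and infiltrating leukocytes can express these genes. The 31 genes described here were listed by name as interferon-responsive or antigen presentation genes. A probe with a matching RefSeq accession was found for 30 of them, and all 30 passed the filter on dim probes, among 27958 genes tested in all. Mx1, an antiviral GTPase, was not measured by this rule and has no value below.

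Total RNA came from 24 whole kidneys of male mice, labelled young adult and by the study's methods only shortly past weaning age, 1 kidney to an array: 6 from control mgb+/+ animals and 18 from mgb-/- animals, graded by ultrasound as 7 mildly, 5 moderately and 6 severely hydronephrotic. The mgb-/- (megabladder) mouse has an atonic bladder from before birth, so its kidneys are obstructed to differing degrees, and the grade follows the parenchyma that is left. Each kidney counted as 1 sample, and since nothing in the labels ties kidneys to animals, some may share a mouse and p-values measure only the spread between kidneys. In whole tissue, fewer cells of a type and less RNA per cell cannot be told apart. A level is log2 of the processed probe signal minus the array's 75th percentile, so 0 stands for that percentile and levels compare kidneys within a gene, not genes with each other. A gene passed when its Benjamini-Hochberg adjusted p, over all genes in the limma fit, was under 0.05.

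The 75th percentile lay between 492 and 962 intensity units, no spot was saturated, and 55.1% to 70.7% of probes stood well above background on an array. Severe kidney 4 had the lowest of these shares, with 660 outlier spots against 102 to 261 on the other arrays. Severe kidney 5 had the highest 75th percentile and stood apart in the genes described here, so results that rest on either kidney are also given without it. The defining markers of renal tissue (Umod, Slc34a1, Lrp2, Slc12a1, Slc12a3, Aqp2 and Nphs1 among them) were well above background on all 24 arrays. All 4 urothelial markers examined (Upk1b, Upk2, Upk3a and Krt5) were higher in severe than in control kidneys, and their summed signal was 30.5 to 108 times the 75th percentile in severe kidneys against 2.43 to 7.89 times in control kidneys.

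Upstream sequence is shown for genes on which the results turn: Isg15 and B2m, which were lower in mgb-/- kidneys, and Gbp2, Igtp, Psmb8, Psmb9 and Tap1, which were high in severe kidney 5. Each line gives the 150 bases before the annotated start in GRCm38.p6 (RefSeq), 5′ to 3′ on the gene's strand, with capitals where the bases match 1 of 2 motifs on either strand. The motifs are the core of the interferon-stimulated response element, GAAA, then 2 bases of any kind, then GAAA, and the gamma-activated site, TTC, then 3 bases of any kind, then GAA.
Isg15, chr4:156200819-156200968, minus strand: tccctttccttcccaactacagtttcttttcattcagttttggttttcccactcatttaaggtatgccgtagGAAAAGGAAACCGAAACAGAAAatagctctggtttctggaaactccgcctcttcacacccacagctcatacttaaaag
B2m, chr2:122147537-122147686, plus strand: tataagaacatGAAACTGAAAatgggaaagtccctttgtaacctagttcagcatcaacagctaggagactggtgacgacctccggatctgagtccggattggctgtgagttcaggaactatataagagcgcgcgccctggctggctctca
Gbp2, chr3:142620513-142620662, plus strand: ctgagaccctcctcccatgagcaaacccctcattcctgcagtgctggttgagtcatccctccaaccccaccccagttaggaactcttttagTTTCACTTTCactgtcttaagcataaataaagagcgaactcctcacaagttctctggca
Igtp, chr11:58199406-58199555, plus strand: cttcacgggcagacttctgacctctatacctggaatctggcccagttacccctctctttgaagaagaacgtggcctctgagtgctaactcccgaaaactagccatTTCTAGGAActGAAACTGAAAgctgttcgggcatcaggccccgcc
Psmb8, chr17:34198045-34198194, plus strand: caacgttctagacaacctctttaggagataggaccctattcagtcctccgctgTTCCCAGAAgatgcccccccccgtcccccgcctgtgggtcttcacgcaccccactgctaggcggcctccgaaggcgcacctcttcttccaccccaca
Psmb9, chr17:34187331-34187480, minus strand: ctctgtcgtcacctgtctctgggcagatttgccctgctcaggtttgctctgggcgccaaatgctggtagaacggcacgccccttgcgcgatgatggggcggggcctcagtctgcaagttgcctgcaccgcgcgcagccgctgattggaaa
Tap1, chr17:34187406-34187555, plus strand: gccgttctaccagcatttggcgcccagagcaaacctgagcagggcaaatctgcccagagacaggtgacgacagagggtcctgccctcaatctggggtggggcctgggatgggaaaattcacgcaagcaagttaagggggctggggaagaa
Isg15 held 3 overlapping matches of the response element within this stretch. Igtp held 1 match of each motif, and Psmb8 held the gamma-activated site without the response element. Psmb9 and Tap1 lie head to head, so the 2 stretches printed for them overlap, and neither held a match. Of the members, 25 had an entry in the promoter table, with 30 annotated starts, while Oas2, Mx1, Usp18, Dhx58, Tap2 and Parp14 had none. In the 300 bases from 250 before to 50 after each start, 12 of the 30 members' promoters (40.0%) held the response element core, against 3.44% of the 32851 promoters in the table. The gamma-activated site was in 5 of 30 (16.7%), those of Ifit2, Igtp, Irf1, Irf8 and Psmb8, against 8.30% of all promoters. A match of letters is a description of the sequence and not evidence of binding.

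The first question was whether the interferon genes differed between mgb-/- kidneys as a whole and control kidneys. Of the 30 measured genes, 5 were lower in mgb-/- kidneys: Isg15, Oasl2, Oas2, B2m and Cxcl9. Over all genes 7.9% were lower and 5.22% were higher, so 5 of 30 lower is 16.7% against that background. None of the 30 was higher, and at an unadjusted p under 0.05 in limma 9 were lower and 1, Tapbp, was higher. At that unadjusted level 8069 of all 27958 genes differed in either direction. That total was not split by direction, so it gives no share to set beside the 9 lower members alone. The mean was lower in 21 of the 30 genes and their median log2 change was -0.24, beside 0.01 over all genes tested. The 5 changes ranged from 0.729 of the control level in B2m to 0.536 in Oas2 among the 4 measured on every array, with Cxcl9, which was dim, lower by more. As the map of differences by kidney shows, antiviral effectors were mostly below the control mean in mgb-/- kidneys, while genes of antigen presentation lay on either side of it.

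**Figure D1:**
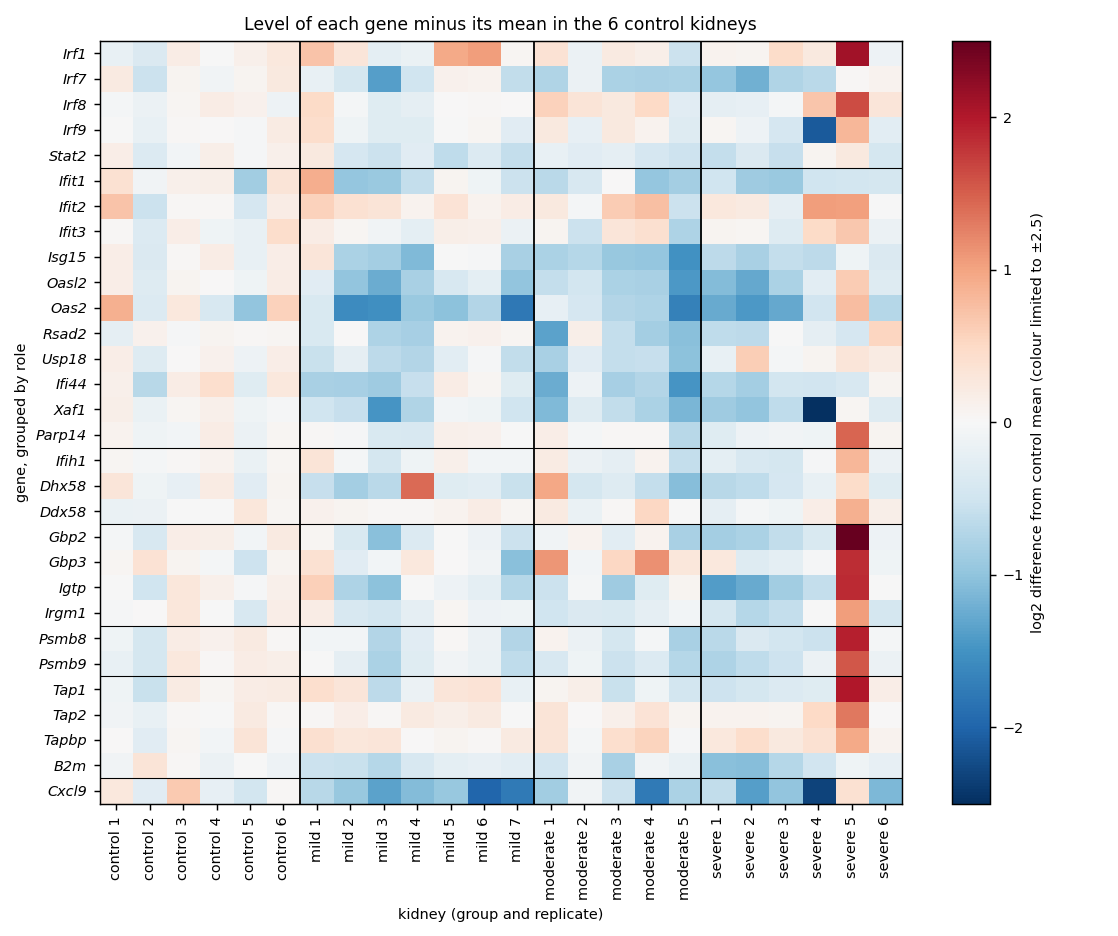
Each cell gives a gene's log2 level in 1 kidney minus the gene's mean in the 6 control kidneys (red above, blue below, colour limited to 2.5 in either direction), with kidneys ordered by group and genes by role. Blue cells prevail among the antiviral effectors of the mgb-/- kidneys, and severe kidney 5 forms a red column in 25 of 30 genes.

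Isg15 encodes a ubiquitin-like protein that is attached to other proteins during an interferon response. Its level ran from 2.00 to 2.55 with a median of 2.46 in control kidneys, from 1.26 to 2.68 (median 1.57) in mild kidneys and from 1.55 to 2.26 (median 1.74) in severe kidneys. In the 5 moderate kidneys it was 1.58, 1.65, 1.42, 1.40 and 0.86. All moderate kidneys lay below every control kidney, and mild and severe kidneys overlapped the control range. The difference of mgb-/- from control kidneys was -0.63 ± 0.19 (log2, SE, n = 18 and 6; limma, adjusted p = 0.0298), and 17 of 18 mgb-/- kidneys lay below the control mean. A dimmer Isg15 probe differed by -0.75. With quantile normalization the change was -0.54 (limma, adjusted p = 0.0756).

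Oasl2 and Oas2 belong to the oligoadenylate synthetase family, of which Oas2 makes the messenger that activates RNase L and Oasl2 is a family member with ubiquitin-like domains. Oasl2 ran from -0.63 to -0.12 (median -0.28) in control kidneys, and the mgb-/- kidneys ran from -1.74 to 0.32 with a median of -1.10. Severe kidney 5 was the 1 mgb-/- kidney above the control mean, and 14 of 18 lay below every control kidney. The change was -0.67 ± 0.20 (log2, SE, n = 18 and 6; limma, adjusted p = 0.0322). Oas2 was more spread in control kidneys, from -2.71 to -0.82, and ran from -3.50 to -0.94 in mgb-/- kidneys, so the groups overlapped. Its change was -0.90 ± 0.30 (log2, SE, n = 18 and 6; limma, adjusted p = 0.0469).

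B2m is the invariant light chain of MHC class I. It ran from 5.31 to 5.78 in control kidneys, from 4.73 to 5.24 in mild kidneys and from 4.39 to 5.34 in severe kidneys, and was 4.97, 5.36, 4.64, 5.36 and 5.27 in moderate kidneys. All mild kidneys were below every control kidney, and 15 of 18 mgb-/- kidneys were. The change was -0.46 ± 0.14 (log2, SE, n = 18 and 6; limma, adjusted p = 0.0300). It did not pass with quantile normalization (-0.29; adjusted p = 0.124), scaling by the array median (-0.61; adjusted p = 0.0552) or in the authors' table (-0.32; adjusted p = 0.0827), each by limma.

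Cxcl9 is a chemokine induced by interferon-gamma that attracts T cells. It was dim, well above background on all 6 control arrays and on 13 of 18 mgb-/- arrays. Levels ran from -4.79 to -3.69 in control kidneys and from -6.65 to -3.96 in mgb-/- kidneys, of which 16 of 18 lay below every control kidney. The 2 others were moderate kidney 2 at -4.41 and severe kidney 5 at -3.96. The change was -1.05 ± 0.28 (log2, SE, n = 18 and 6; limma, adjusted p = 0.0176), and with normexp background correction, which pulls dim values together, it was -0.18 (limma, adjusted p = 0.301). A second probe for Cxcl9 was well above background on the 6 control arrays and on 3 others, among them moderate kidney 2 and severe kidney 5, and differed by -2.44, so the size of the Cxcl9 change is uncertain.

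**Figure D2:**
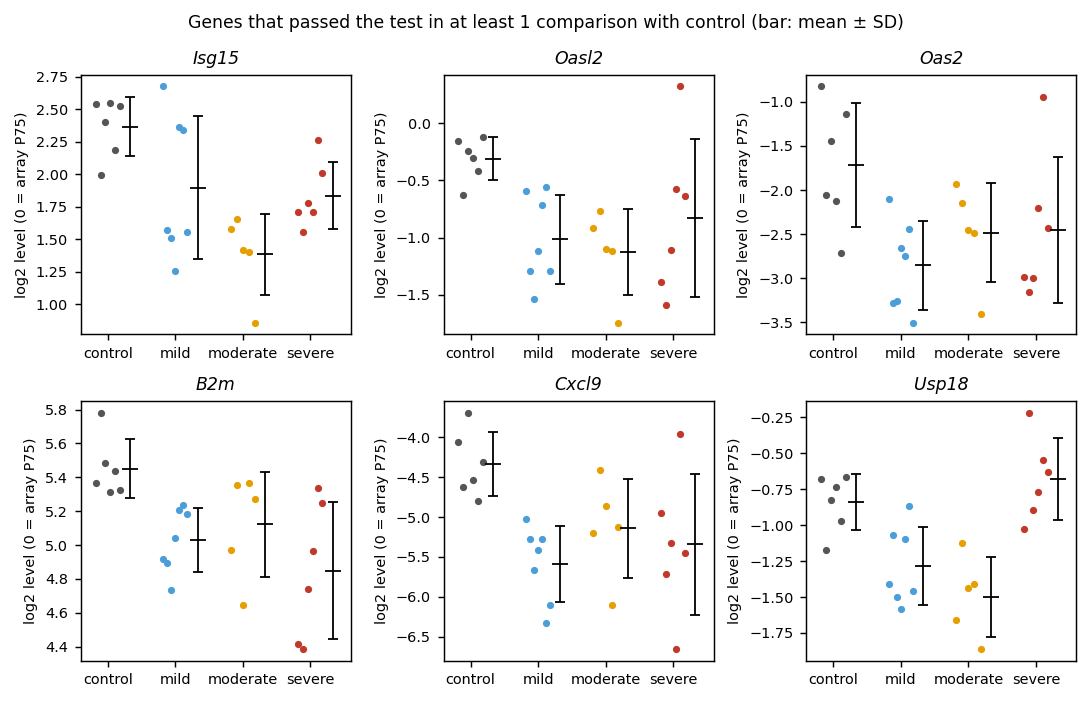
Log2 level (0 is the array's 75th percentile) of the 6 genes that passed in at least 1 comparison with control kidneys, 1 point per kidney in 4 groups, with bars for mean and SD. Isg15, Oasl2, B2m and Cxcl9 were lower in most mgb-/- kidneys of every grade, and Usp18 was lower in moderate kidneys and within the control range or above it in severe kidneys.

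These 5 calls depended on single kidneys, and so did the number of calls over all genes. Left out in turn, control kidneys 1, 3, 4, 5 and 6 gave 1, 0, 2, 3 and 2 lower genes in place of 5, and severe kidney 5 gave 8. Over all genes 3667 passed in either direction with every kidney kept. Without those control kidneys 2370, 1701, 2258, 2693 and 2584 passed, and 4189 without severe kidney 5. The member counts are therefore not particular to these genes. Without control kidney 3, limma at an unadjusted p under 0.05 still had 8 lower and 1 higher, and the mean stayed lower in 21 of 30 genes. The arrays lie on 3 slides, each with 2 control and 6 mgb-/- kidneys. The mgb-/- mean was lower than the control mean in 22, 13 and 24 of 30 genes on slides 1, 2 and 3, with median differences of -0.28, 0.06 and -0.48. Slide 2 holds severe kidney 5, and without it 23 of 30 genes were lower there with a median of -0.11. The within-slide differences of Isg15 were -0.87, -0.35 and -0.68, those of Oasl2 were -0.87, -0.36 and -0.79, and those of B2m were -0.36, -0.48 and -0.53. Oas2 differed by -1.16, -0.20 and -1.33 and Cxcl9 by -1.30, -0.19 and -1.66, so both fell by less on slide 2. Without severe kidney 5 the slide 2 differences were -0.53 for Oas2 and -0.37 for Cxcl9. Those of Isg15, Oasl2 and B2m were then -0.45, -0.60 and -0.52. With slide as a block 4 genes were lower, and Oas2 was not among them (limma, adjusted p = 0.0564).

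Among the remaining antiviral effectors, Ifit1, an RNA-binding protein that blocks translation of foreign RNA, and Ifi44, an interferon-induced cytosolic protein, had lower means without passing. Ifit1 changed by -0.48 ± 0.22 (limma, adjusted p = 0.139) and Ifi44 by -0.58 ± 0.20 (limma, adjusted p = 0.0605). Rsad2, the antiviral enzyme viperin, changed by -0.38 ± 0.20 (limma, adjusted p = 0.221). Ifit2 and Ifit3, relatives of Ifit1, were the only effectors with a higher mean, by 0.30 and 0.01, and the Ifit3 value turned to -0.01 without severe kidney 4 and to -0.02 without severe kidney 5. Parp14, an ADP-ribosyltransferase, changed by -0.01, and by -0.10 without severe kidney 5. The 11 measured effectors and modifiers had a median change of -0.48, 3 of them passed as lower (Isg15, Oasl2 and Oas2), and 9 of 11 had a lower mean.

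Xaf1, a proapoptotic protein induced by interferon, ran from -0.01 to 0.30 in control kidneys, and 15 of 18 mgb-/- kidneys lay below that range. Severe kidney 4 was at -6.64, while the next lowest kidney was at -1.31, and its spot was the only 1 of this probe not well above background. A dimmer Xaf1 probe, well above background on 12 arrays, differed by 0.10. With all kidneys the change was -0.97 ± 0.60 (limma, adjusted p = 0.300), and without severe kidney 4 it was -0.63 ± 0.17 (limma, adjusted p = 0.0191). The same kidney was lowest in Irf9, at -0.62 where the other kidneys ran from 1.05 to 2.30.

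None of the 5 transcription factors passed. Irf7, the factor that amplifies type I interferon production, ran from -2.08 to -1.29 in control kidneys and from -2.93 to -1.44 in mgb-/- kidneys, of which 10 of 18 were below every control kidney. Its change was -0.54 ± 0.19 (limma, adjusted p = 0.0663). Stat2, a part of the complex that carries the type I signal, changed by -0.32 ± 0.12 (limma, adjusted p = 0.0826). Irf1, induced by interferon-gamma, and Irf8, a factor of myeloid cells, had higher means by 0.31 ± 0.25 and 0.19 ± 0.20, and Irf9 had a lower mean by 0.14 with an SE of 0.24. Without severe kidney 4 Irf9 changed by -0.03, and without severe kidney 5 Irf1 changed by 0.20 and Irf8 by 0.11. Without severe kidney 5 both Irf7 (adjusted p = 0.0452) and Stat2 (adjusted p = 0.0347) passed as lower in limma.

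The RNA sensors Ifih1 (MDA5), Dhx58 (LGP2) and Ddx58 (RIG-I) changed by -0.08 ± 0.14, -0.28 ± 0.26 and 0.11 ± 0.11, and none passed. Dhx58 was uneven, since 13 of 18 mgb-/- kidneys were below every control kidney and 3 were above every control kidney. Among the GTPases that act on intracellular pathogens, Gbp2 (-0.20), Igtp (-0.35) and Irgm1 (-0.21) had lower means and Gbp3 (0.20) a higher one, and none passed. Without severe kidney 5, Gbp2 changed by -0.36 and Gbp3 by 0.10, Ifih1 by -0.13 and Ddx58 by 0.06, and none of these passed. The immunoproteasome subunits Psmb8 and Psmb9, which replace constitutive subunits and alter the peptides made, changed by -0.19 ± 0.25 and -0.28 ± 0.22. Without severe kidney 5 the changes were -0.32 (limma, adjusted p = 0.119) and -0.39 (limma, adjusted p = 0.0428).

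In the peptide loading group only B2m passed, as lower. Tap1 and Tap2 form the transporter that carries peptides into the endoplasmic reticulum, and Tapbp (tapasin) bridges it to MHC class I. Tap1 changed by 0.00 ± 0.25, Tap2 by 0.21 ± 0.13 and Tapbp by 0.27 ± 0.11 (limma, adjusted p = 0.115), so none passed. Without severe kidney 5 Tap1 changed by -0.12. Of 18 mgb-/- kidneys, 17 were above the control mean in Tap2 and 16 in Tapbp, and all 18 were below it in B2m. That B2m and Tapbp changed differently was not tested.

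The second question was whether the grades differed from control kidneys and from each other. In mild kidneys 1 of 30 genes was lower, Cxcl9, by 1.25 ± 0.33 on the log2 scale (n = 7 and 6; limma, adjusted p = 0.0294), where 2.99% of all genes were lower and 2.94% were higher. In moderate kidneys 2 were lower, where 0.551% of all genes were lower and 0.637% were higher. They were Isg15, by 0.98 ± 0.22 (n = 5 and 6; limma, adjusted p = 0.0356), and Usp18, by 0.66 ± 0.16 (n = 5 and 6; limma, adjusted p = 0.0452). In severe kidneys 1 was lower, B2m, by 0.60 ± 0.16 (n = 6 and 6; limma, adjusted p = 0.0195), where 9.19% of all genes were lower and 6.48% were higher. Cxcl9 missed the threshold there (-1.01 ± 0.34; limma, adjusted p = 0.0501). No member was higher than in control kidneys in a grade, with 0, 0 and 2 higher at an unadjusted p under 0.05 in mild, moderate and severe kidneys. Lower at that unadjusted level were 7, 7 and 6 members. Of all 27958 genes, 5934, 5120 and 8793 differed at it in either direction. The median change of the members was -0.27, -0.30 and -0.15 in the 3 grades. These comparisons share the 6 control kidneys.

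Single kidneys also moved these counts and those over all genes. Without 1 of the control kidneys 1, 3 and 6 or of the mild kidneys 3, 6 and 7 no member was lower in mild kidneys. It was 2 without control kidney 5 or moderate kidney 5, and without severe kidney 5, through the shared spread, it was 3. Over all genes 1658 passed in mild kidneys with every kidney kept, and 779 to 1100 in the fits with no lower member. Without control kidney 5, moderate kidney 5 or severe kidney 5 the number was 1233, 1794 and 2364. In moderate kidneys the count of 2 lay between 0 and 4 when kidneys were left out 1 at a time: it was 0 without any 1 of the control kidneys 1, 3, 4 and 6 or of the moderate kidneys 1, 3 and 4, 4 without moderate kidney 2, 3 without severe kidney 5, and 1 without any 1 of control kidneys 2 and 5, mild kidneys 2, 3, 5 and 7, moderate kidney 5 and severe kidney 3. Over all genes 332 passed in moderate kidneys with every kidney kept. Without control kidneys 1, 3, 4 and 6 it was 108, 58, 98 and 70, and without moderate kidneys 1, 3 and 4 it was 16, 83 and 39. It rose to 1198 without moderate kidney 2, 1084 without severe kidney 5 and 1181 without moderate kidney 5, where 1 member was lower. With slide as a block neither Isg15 nor Usp18 passed in moderate kidneys. In severe kidneys the count was 0 without severe kidney 1 or 2, 3 without control kidney 5, and 2 without severe kidney 6 or moderate kidney 2 or 4. Over all genes 4382 passed in severe kidneys with every kidney kept. Without severe kidneys 1, 2 and 6 it was 2344, 2160 and 7209, and without control kidney 5 it was 3680. Without moderate kidneys 2 and 4 it was 4467 and 4184. B2m in severe kidneys changed by -0.38 with quantile normalization, by -0.77 with scaling by the array median (limma, adjusted p = 0.0528) and by -0.41 in the authors' table (adjusted p = 0.0672), and passed in none of these.

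Between grades no member passed. In severe against mild kidneys, where 0.529% of all genes were higher and 0.0465% lower, 1 member was higher and none lower at an unadjusted p under 0.05. In severe against moderate kidneys, where 0.00358% of all genes were higher and 0.00358% lower, 1 member was higher and none lower at that level. In moderate against mild kidneys, where 0% of all genes were higher and 0% lower, 1 was higher and 2 were lower. The percentages are at the adjusted p, unlike the member counts. At the unadjusted level 3022, 2859 and 1844 of all 27958 genes differed, in the order given. The member nearest to the threshold was Usp18, the protease that removes Isg15 from its targets and dampens type I receptor signalling. It ran from -1.17 to -0.67 in control kidneys, from -1.58 to -0.86 in mild kidneys and from -1.03 to -0.22 in severe kidneys, and was -1.66, -1.13, -1.44, -1.41 and -1.86 in moderate kidneys. Severe kidneys were higher than mild kidneys by 0.60 ± 0.15 (n = 6 and 7; limma, adjusted p = 0.0689) and higher than moderate kidneys by 0.82 ± 0.16 (n = 6 and 5; limma, adjusted p = 0.0784). Severe and moderate kidneys did not overlap in Usp18.

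Severe kidney 5 was highest of all 24 kidneys in 17 of 30 members. Over all genes, 11.4% were highest and 20.4% were lowest in that kidney. The 17 were Irf1, Irf8, Irf9, Ifit3, Oasl2, Parp14, Ifih1, Ddx58, all 4 GTPases, both immunoproteasome subunits, Tap1, Tap2 and Tapbp. The largest gaps to the next kidney were those of Gbp2, at 2.61 against 0.32, Psmb8, at 3.06 against 1.35, and Tap1, at -0.42 against -2.01. Over the mean of the control kidneys Gbp2 was 5.70-fold, Irf1 4.26-fold and Tap1 4.03-fold. Among the 30, the members not raised in this kidney were mostly antiviral effectors: Isg15 was at 2.26, Ifit1 at -2.15, Rsad2 at 1.02, Ifi44 at -0.41 and Irf7 at -1.51, each within the range of the control kidneys or, for Rsad2, below it. The effectors Usp18, at -0.54, and Ifit2, at -0.05, lay above every control kidney without being highest. By role, the median distance from the control mean in this kidney was 1.85 for GTPases, 1.75 for the immunoproteasome, 1.13 for peptide loading, 0.83 for transcription factors and 0.30 for antiviral effectors. This is 1 kidney, so the pattern is a description with no test.

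**Figure D3:**
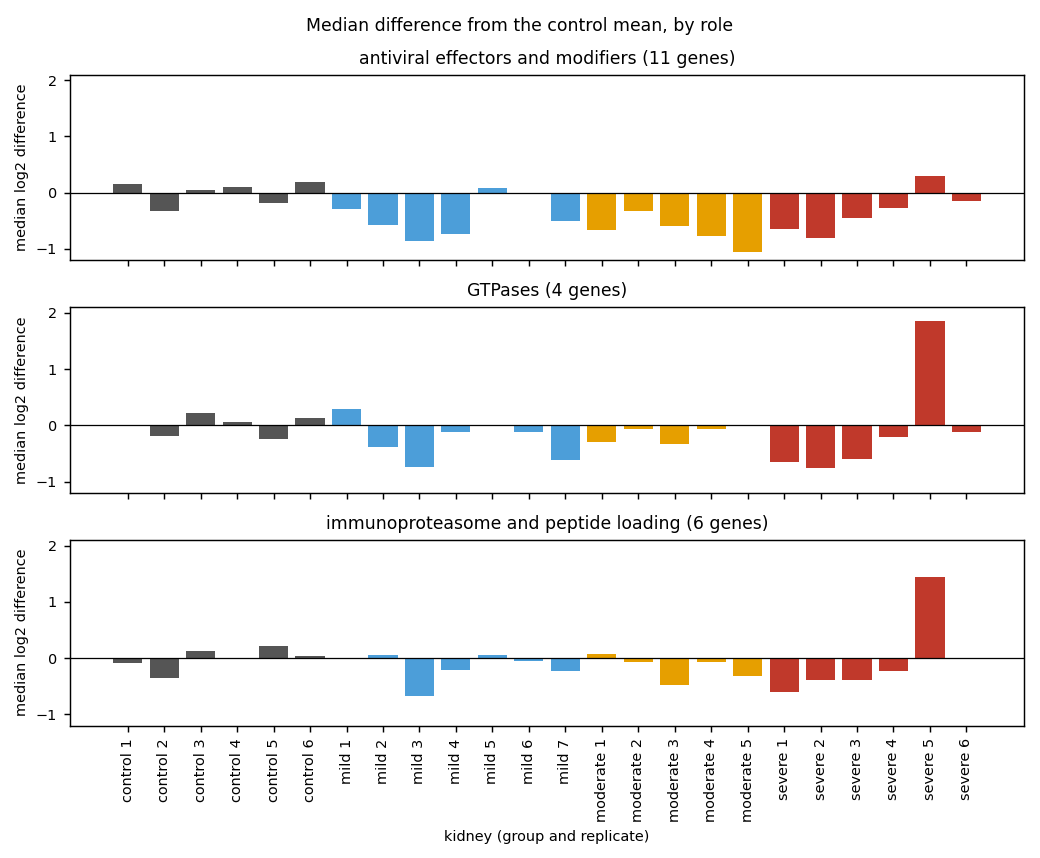
Bars give, for each of the 24 kidneys, the median over the genes of a role of the log2 difference from the control mean, in 3 panels on the same scale. Antiviral effectors were below 0 in most mgb-/- kidneys, and severe kidney 5 rose to 1.85 for GTPases and to 1.44 for the 6 genes of the immunoproteasome and peptide loading.

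Other genes of the same pathways, from lists of interferon and MHC genes outside the 31, were also high in severe kidney 5. It was highest in 20 of 33 other interferon-stimulated effectors, whose median lay 0.69 above the control mean. It was highest in 8 of 17 signal transducers, sensors and adaptors, in 4 of 9 receptors and kinases and in 0 of 4 ligands. It was highest in 10 of 14 interferon-gamma induced GTPases, chemokines and relatives, among them Cxcl10, a ligand of the same receptor as Cxcl9, at 2.41 where the other kidneys ran from -3.65 to 0.91. It was highest in 10 of 17 MHC class I genes, among them H2-K1 (6.21, others 4.68 to 5.61), H2-D1 (6.14, others 5.08 to 5.92) and Nlrc5, the class I transactivator (-1.04, others -4.22 to -1.98). It was highest in 7 of 13 MHC class II genes, among them Cd74, the invariant chain (5.05, others 2.33 to 3.34). Socs1 and Socs3, feedback inhibitors of cytokine signalling, were highest there too, at -1.27 and 3.75. The probe for Ifng, interferon-gamma itself, was well above background on 1 of 24 arrays, that of severe kidney 5. The constitutive subunits Psmb5 and Psmb6 were lowest in this kidney, at 6.79 and 5.98.

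Cell type markers moved with this kidney. Of 15 leukocyte markers tested, 7 were highest there: Ptprc, the pan-leukocyte gene for CD45, at -0.00 (others -2.41 to -1.19), Itgax, Adgre1, Csf1r, Lyz2, and the neutrophil genes S100a8 at 3.72 (others -4.51 to -1.08) and S100a9 at 5.55 (others -2.42 to 1.23). The T, B and NK cell markers Cd3e, Cd4, Cd8a, Cd79a and Nkg7 were not, and Nkg7 was lowest there. Summed over the 15 markers the signal was 179 times the 75th percentile, within the 90.1 to 241 of the other kidneys, and Cd79a and Cd8a were well above background on 11 and 16 arrays. Of 8 renal markers, 7 were lowest in severe kidney 5, Slc34a1 at 5.87 (others 7.21 to 8.32) and Lrp2 at 5.47 (others 6.61 to 7.65) among them, and their sum was 380 against 580 to 931 elsewhere. The part of these markers in the levels of the interferon genes was not tested.

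Without severe kidney 5, the median change of the members in severe against control kidneys was -0.43 in place of -0.15, and 4 were lower in place of 1: B2m, Cxcl9, Oasl2 and Oas2. Over all genes 2962 passed in either direction without it, in place of 4382. At an unadjusted p under 0.05, 15 were then lower in place of 6. Igtp changed by -0.83 ± 0.27 (limma, adjusted p = 0.0536) and Irgm1 by -0.44 ± 0.14 (limma, adjusted p = 0.0505) without it, where with it they changed by -0.38 ± 0.39 and -0.19 ± 0.21. The median difference between severe and mild kidneys turned from 0.09 to -0.11, with 0 members passing in either case. Across all mgb-/- kidneys, the 8 lower members without it were the 5 named above with Irf7, Stat2 and Psmb9, while 4189 of all genes passed in place of 3667.

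**Figure D4:**
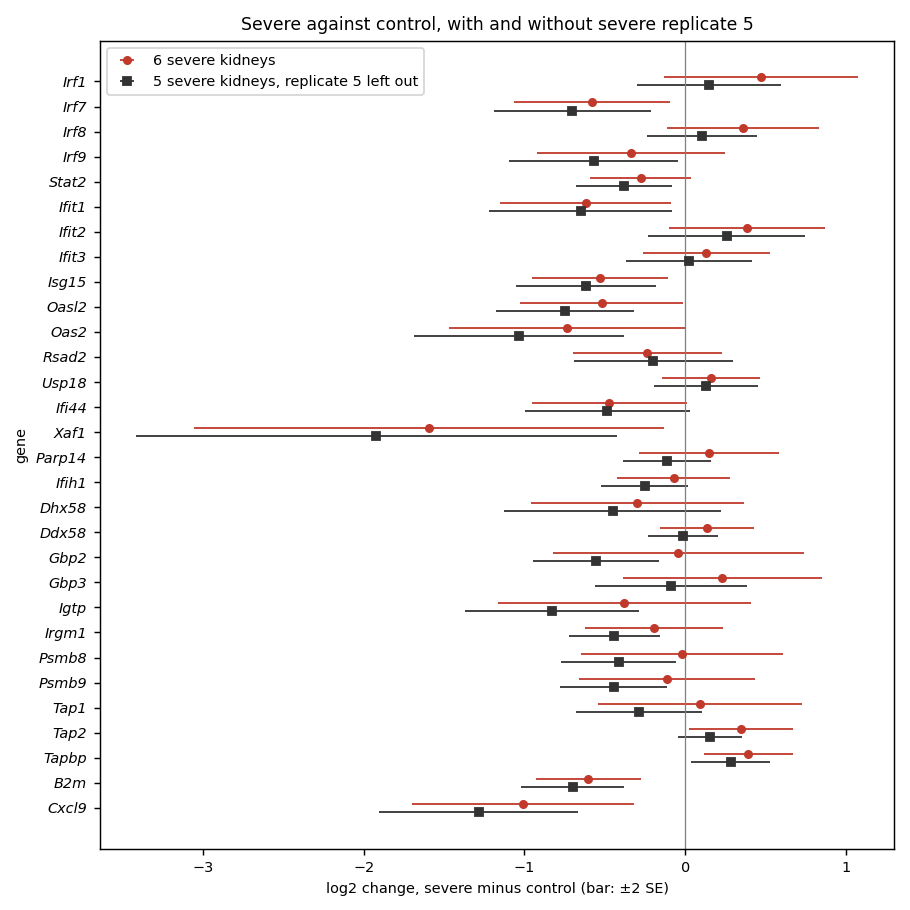
Points give each gene's log2 change in severe against control kidneys from limma, with bars of 2 SE in either direction, for all 6 severe kidneys (red) and with severe replicate 5 left out (black). Leaving it out moved the GTPases, immunoproteasome subunits and Tap1 to the left and narrowed their bars.

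Kidney by kidney, 15 of 18 mgb-/- kidneys had a median difference from the control mean below 0, against 2 of 6 control kidneys. The exceptions were severe kidney 5, at 0.83 with 25 of 30 members above the control mean, mild kidney 1 at 0.09 and mild kidney 5 at 0.02. The lowest median was that of moderate kidney 5, at -0.71, which was also lowest of the 24 in 10 of 30 members, where 5.01% of all genes were lowest. Control kidney 2 was the lowest control, at -0.30 with 26 members below the control mean. Mild kidneys spanned -0.66 to 0.09.

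How far members moved together was measured for 10 pairs over the 18 mgb-/- kidneys, with 2-sided permutation tests of 100000 draws and adjustment over the 10 pairs. Irf7 and Isg15 were correlated (Pearson r = 0.67, permutation p = 0.00258, adjusted p = 0.00516; Spearman rho = 0.66, permutation p = 0.00347, adjusted p = 0.0116), and r was 0.60 without the 2 kidneys farthest from the median of Irf7. Irf7 and Psmb9 gave r = 0.66 (permutation p = 0.00048, adjusted p = 0.0024) and rho = 0.86 (permutation p = 1e-05, the smallest that these draws can give, adjusted p = 0.0001), with r = 0.71 without the 2 farthest. Psmb8 and Tap1 gave r = 0.95 (permutation p = 1e-05, adjusted p = 0.0001) and rho = 0.80 (permutation p = 0.00014, adjusted p = 0.0007), with r = 0.81 without the 2 farthest. On the 3 slides r ran from 0.61 to 0.85 for Irf7 with Isg15, from 0.69 to 0.85 for Irf7 with Psmb9 and from 0.54 to 0.99 for Psmb8 with Tap1. Without severe kidney 5 r was 0.63, 0.84 and 0.82 for these pairs in that order.

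Other relations weakened when kidneys were left out. Irf1 with Psmb9 (r = 0.81, permutation p = 0.00098, adjusted p = 0.00327; rho = 0.56, permutation p = 0.0175, adjusted p = 0.0437) and Irf1 with Gbp2 (r = 0.80, permutation p = 0.00139, adjusted p = 0.00348; rho = 0.50, permutation p = 0.0363, adjusted p = 0.0610) fell to r = 0.52 (permutation p = 0.0340, adjusted p = 0.0850) and 0.48 (permutation p = 0.0513, adjusted p = 0.0854) without severe kidney 5, and to 0.48 and 0.47 without severe kidney 5 and mild kidney 6, the 2 farthest in Irf1. Psmb8 with Ptprc (r = 0.78, permutation p = 0.00469, adjusted p = 0.00782; rho = 0.50, permutation p = 0.0366, adjusted p = 0.0610) fell to r = 0.35 (permutation p = 0.167) without severe kidney 5 and to 0.19 without severe kidney 5 and moderate kidney 5, the 2 farthest in Psmb8. Within slides that pair gave r of 0.77, 0.99 and -0.53, so it did not hold on slide 3. Slide 2 holds severe kidney 5. Irf7 with Irf1 gave r = 0.54 (permutation p = 0.0159, adjusted p = 0.0227) and rho = 0.44 (permutation p = 0.0720, adjusted p = 0.103), and r = 0.63 without the 2 farthest, but r = 0.49 (permutation adjusted p = 0.0854) without severe kidney 5. Irf7 was not detectably related to Ifit3 (r = 0.11, permutation p = 0.648; rho = 0.09, permutation p = 0.710), Ptprc (r = 0.19, permutation p = 0.470; rho = -0.00, permutation p = 1) or the tubular injury gene Lcn2 (r = -0.15, permutation p = 0.558; rho = -0.35, permutation p = 0.158).

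**Figure D5:**
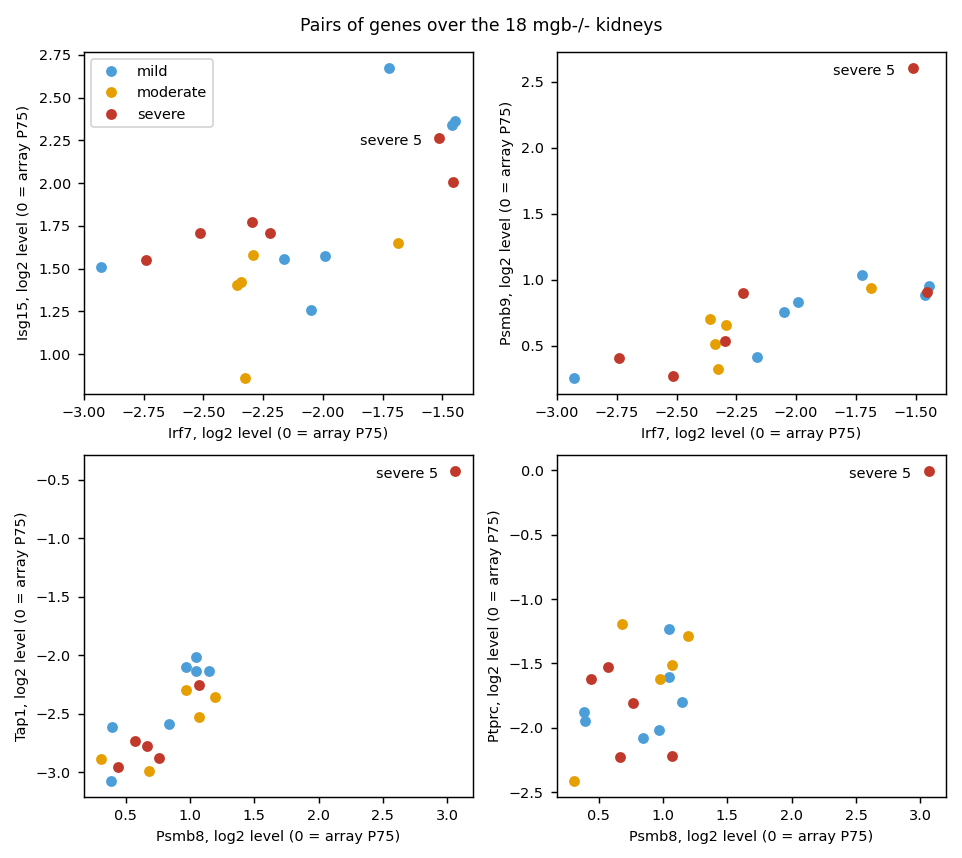
Log2 levels (0 is the array's 75th percentile) of 4 gene pairs in the 18 mgb-/- kidneys, coloured by grade, with severe kidney 5 named. With severe kidney 5 left out, r went from 0.67 to 0.63 for Irf7 with Isg15 and from 0.66 to 0.84 for Irf7 with Psmb9. That of Psmb8 with Ptprc went from 0.78 to 0.35.

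The wider pathway was read from 9 lists of other interferon and MHC genes in mgb-/- against control kidneys, under the same adjusted p, where 7.9% of all genes were lower and 5.22% were higher. The counts describe the genes named and were not tested against that share. Of 33 other interferon-stimulated effectors tested, 6 were lower and 1 was higher. The lower ones included Oas1a, a synthetase related to Oas2 (-1.18 ± 0.24, 1 mgb-/- kidney without a value), Cmpk2, a mitochondrial nucleotide kinase (-0.69 ± 0.16), and Rtp4 (-0.66 ± 0.19), with Trim25, Trim30a and Phf11d as the rest, and the higher one was Isg20, an exonuclease (0.80 ± 0.22). Of 17 signal transducers, sensors and adaptors, Stat3 was higher (0.90 ± 0.20; higher than the control mean in 18 of 18 kidneys), and 3 were lower, Irf5 (-1.09 ± 0.27) and Irf3 among them. Irf5 acts downstream of Toll-like receptors. Of 8 feedback inhibitors, Irf2bp2, a corepressor of Irf2, was higher (0.49 ± 0.11).

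Of 9 receptors and kinases 1 was lower, Il10rb, a shared subunit of the receptors for lambda interferons and interleukin 10. Ifnar1 changed by 0.03 and Ifngr1 by 0.19 on the log2 scale, and neither passed. Socs1 changed by -0.15 and Socs3 by 1.59 (limma, adjusted p = 0.0662), and neither passed. Of 17 MHC class I genes, Calr and Pdia3, chaperones of the loading complex that also fold other proteins, were lower and none was higher. H2-K1, H2-D1 and Nlrc5 changed by 0.17, -0.04 and 0.03. Of 13 MHC class II genes 1 was lower, Ifi30, a lysosomal thiol reductase, and Cd74 changed by -0.08. Of 3 constitutive proteasome subunits Psmb7 was lower. None of 14 interferon-gamma induced GTPases, chemokines and relatives passed in limma, with 0 at an unadjusted p under 0.05, and Cxcl10 changed by 0.49. Genes in these counts beyond those the naming rule gives were named after their values were seen.

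The ligands that missed the filter on dim probes were near background. Of 8 interferon ligands on the array under this naming, 4 were tested (Ifna1, Ifna2, Ifnk and Ifnl3) and none passed in limma, with 1 lower at an unadjusted p under 0.05. Ifnb1 was well above background on 0 of 24 arrays, so no level or fold can be given for it. Between severe and mild kidneys 0 genes of the 9 lists passed.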

How the data were processed

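Cy3-labelled RNA of 24 kidneys was hybridised to Agilent one-colour 8x60K mouse arrays. The deposited intensity of each spot was background-subtracted and detrended by Feature Extraction 10.10 per the file headers. The authors' own intensity table, whose normalization is not given in the sources used here, served as an alternative; its medians lay at 75 to 77 and its log2 values correlated with the scanner's at 0.989 or more. Here log2 signal was set against each array's 75th percentile, and control spots and outlier flags were left out. Of 55681 probes, 26762 were named through RefSeq accessions and 28919 kept their accession. A probe had to stand well above background on 5 or more arrays, and the brightest such probe stood for its gene. Fits used limma 3.58.1 (R 4.3.3; lmFit, eBayes) over 27958 genes with Benjamini-Hochberg adjustment, with control and mgb-/- as 2 groups or all 4 groups in 1 fit. Correlations and figures used Python 3.11.15, numpy 2.4.6, scipy 1.17.1 and matplotlib 3.10.9. The fits were tested on simulated data, with 200 genes changed in mgb-/- against control kidneys. Changes of 0.5, 1 and 2 on the log2 scale were recovered in 28.5%, 68.5% and 90% of them. In that setting a change of 0.5 was missed more often than found, and the 3 sizes gave 3, 11 and 10 false calls. The simulation changed 200 of 27635 genes and drew noise separately for each gene, whereas 3667 of 27958 genes passed in the data. Its shares therefore do not give the recovery in the data themselves. All members were named, with Ifng, Ifnb1, Ifnar1, Ifngr1, Socs1, Socs3, Cxcl10, H2-K1, H2-D1, Nlrc5 and Cd74. Further listed genes were chosen, among those that passed, by the largest absolute log2 change in each direction. Members and lists were chosen with earlier results of these data known. Some genes of the lists count in their totals but are not reported here by name. The number of arrays limits the precision.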

Additional observations from a re-analysis of the deposited data

Results flagged for a closer look

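The 120 sets of members within a group share the same kidneys, so they are not independent and their number cannot be set against chance. Among them, 16 held a kidney farther from the rest than Dixon's test allows at a level of about 1 in 20 for a single set. Severe kidney 5 was the highest severe kidney in 9 of them: Irf1 at 4.39 (next 2.76), Ifih1 at -0.19 (next -1.05), Ddx58 at 2.53 (next 1.81), Gbp2 at 2.61 (next -0.04), Gbp3 at 2.27 (next 0.69), Psmb8 at 3.06 (next 1.07), Psmb9 at 2.60 (next 0.91), Tap1 at -0.42 (next -2.26) and Parp14 at 2.04 (next 0.67). Severe kidney 4 was lowest in Xaf1, at -6.64 (next -0.82), where its spot was not well above background. Moderate kidney 5 was lowest in Parp14, at -0.10 (next 0.54), and moderate kidney 2 was highest in Irf7, at -1.69 (next -2.29). Mild kidney 1 was highest in Irf8, at 1.53 (next 1.09), and in Stat2, at 1.13 (next 0.61), and mild kidney 4 in Dhx58, at -1.71 (next -3.40). Control kidney 2 was highest in B2m, at 5.78 (next 5.49). All are log2 levels relative to the array's 75th percentile.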

How the results depend on the processing

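No change of a called member reversed under the alternatives run. Members lower in mgb-/- kidneys numbered 5; scaling by the array median gave 8, array quality weights 14, leaving out both severe kidneys 4 and 5 (chosen after seeing the data) 8, a fold of at least 2 gave 1, and leaving out single kidneys 0 to 8. Array weights also gave 1 higher, and raised the genes called overall from 3667 to 8649 (median scaling 2765). In mild kidneys 1 was lower, against 2 with quantile normalization, 3 in the authors' table, 7 with array weights, 5 with only the groups compared (5583 genes called overall in place of 1658), and 0 to 3 without single kidneys. In moderate kidneys 2 were lower, against 1 with quantile normalization, median scaling or only the groups compared, 0 with no filter, slide as a block or a fold of at least 2, 8 with array weights (and 1 higher), and 0 to 4 without single kidneys. In severe kidneys 1 was lower, against 2 with quantile normalization, median scaling, normexp, the mean of a gene's probes or the second brightest probe, 0 in the authors' table, with only the groups compared or with a fold of at least 2, 11 with array weights, 6 without severe kidneys 4 and 5, and 0 to 4 without single kidneys. There, quantile normalization, normexp, the authors' table, probes well above background on all arrays and array weights gave 1 higher, and leaving out single kidneys 0 to 1. Between grades 1 was higher with array weights (moderate over mild, severe over moderate) and with normexp (severe over moderate, severe over mild), and 0 to 1 were higher in severe kidneys without single kidneys. Median scaling moved the median change of all genes to -0.14 in mgb-/- kidneys, so its calls are relative to that shift. Same-numbered kidneys did not deviate together as a set (median r = 0.0048 over 33 pairs, 10 over 0.1), with r from -0.55 to 0.65. Of these pairs 21 shared a slide, and a median cannot show whether some kidneys share a mouse. A replicate block gave 2 lower in mgb-/- kidneys, 0 in mild and 0 in moderate kidneys. The causes were not tested. Cxcl9 was near background and limits what can be said of its size.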
